A study of Mus musculus with 12 samples.

Results

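The genes described here encode 10 cell surface antigens that are used to sort or label mammary cells by flow cytometry: Cd24a, Epcam, Cd44, Thy1, Prom1, Ly6a, Procr, Tspan8, Cd14 and Cd55. The integrins, which serve the same purpose, were left out of the set and are given only as a related list. Of the 10 genes 9 had a probeset with a single gene symbol, out of 19938 genes measured in this way, and Ly6a was not analysed here. The genes lie on separate chromosomes apart from Cd44 and Procr (chromosome 2) and Cd24a and Tspan8 (chromosome 10). Members were listed by name and use, and the rule has no threshold on a measured value. The antigens fall into 3 groups by their usual use. Cd24a and Epcam mark the epithelium as a whole, Cd44, Thy1, Procr and Tspan8 have been used for basal or stem cell populations, and Prom1, Ly6a, Cd14 and Cd55 divide the luminal cells.

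RNA was profiled on 12 Affymetrix arrays, 3 for each of 4 groups of sorted mouse mammary cells. Both genotypes carried the MMTV::Cre transgene and the mT/mG reporter, in which recombined cells become GFP+, and differed in Wnt4: the Wnt4-deleted cells came from MMTV::Cre+.Wnt4fl/fl.mT/mG mice and the WT cells from MMTV::Cre+.Wnt4wt/wt.mT/mG controls, all females of 10 to 14 weeks. The suspension was depleted of lineage-positive cells, and its GFP+ cells were split by CD24 protein into CD24 low cells, labelled myoepithelial, and CD24 high cells, labelled luminal. The labels speak of glands in one place and of grafts in another, and the promoter of the Cre limits the model to cells in which MMTV was active.

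Arrays are named by the number in their title, which runs from 1 to 4, 9 to 12 and 13 to 16, and each of these 3 runs holds 1 array of each group. WT CD24 low cells are arrays 1, 9 and 13, WT CD24 high cells 2, 10 and 14, Wnt4-deleted CD24 low cells 3, 11 and 15 and Wnt4-deleted CD24 high cells 4, 12 and 16. The labels do not say what a run is, nor whether arrays come from separate animals, and the p-values therefore describe only how much these arrays varied. All levels are RMA values on the log2 scale, in which a difference of 1 is a doubling, and differences are CD24 high minus CD24 low or Wnt4-deleted minus WT.

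Mammary ducts are built of an inner luminal layer, which holds hormone-sensing cells and the progenitors of the milk-secreting cells, and an outer layer of contractile myoepithelial cells that lies on the basement membrane. Sorting exploits the fact that both layers carry the same epithelial antigens in different amounts and that some antigens are restricted to a layer or to a subset of it. Several of the antigens are also carried by non-epithelial cells: the protein C receptor by endothelium, Thy1 by fibroblasts and lymphocytes, CD14 by monocytes and CD44 by many cell types.

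The sort was first checked against markers of the cell types. The mean of 13 myoepithelial genes lay between 10.81 and 11.16 on the CD24 low arrays and between 6.16 and 6.99 on the CD24 high arrays. The mean of 12 general luminal genes ran the other way, from 8.08 to 8.93 in CD24 low and from 10.73 to 11.03 in CD24 high cells. Krt5, a basal keratin, read 11.22 to 11.93 in CD24 low and 5.76 to 7.05 in CD24 high cells. Krt8, a luminal keratin, read 12.52 to 12.89 in CD24 high cells and still 10.55 to 11.62 in CD24 low cells. Wnt4 itself read 7.42, 7.92 and 7.62 in WT CD24 high cells and 6.11, 6.46 and 6.78 in Wnt4-deleted CD24 high cells, with no overlap, a fitted difference of -1.20 ± 0.19 (SE, limma adjusted p = 0.416). In CD24 low cells both genotypes lay between 6.20 and 6.66.

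Markers of other cell types were not spread evenly over the CD24 low arrays. The mean of 18 endothelial genes was 6.65 and 6.53 on arrays 1 and 3 and between 8.02 and 9.11 on arrays 9, 11, 13 and 15, against 5.34 to 6.49 on all CD24 high arrays. Pecam1 and Cdh5, which define endothelium, reached 10.39 and 10.61 there, although Pecam1 protein is a usual target of lineage depletion. The mean of 11 fibroblast genes was 8.55 on array 9 and 8.11 on array 11 and between 5.28 and 6.75 on the other 10 arrays. The mean of 10 skeletal muscle genes was 7.13 on array 1 and 8.16 on array 3 and between 5.08 and 5.64 elsewhere. The mean of 12 macrophage genes lay between 4.38 and 6.02 and that of 10 lymphocyte genes between 4.30 and 4.76 over all arrays, with Csf1r at 4.03 to 5.68 and Ptprc at 4.06 to 5.36.

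Promoter sequence is shown for Epcam, Procr and Cd44, members with at least 100 bases upstream of the gene in the RefSeq promoter table of build GRCm38.p6, because Epcam and Procr differed between the fractions in opposite directions and Cd44 did not pass the test in either genotype. A window was found for 6 of the 10 members. The letters searched on both strands were CACCTG, the E-box read by Snail family repressors, CTTTGA, the core of TCF/LEF sites, and AGGAAG, an ETS site core; no window shown held more than 1 of these motifs, and capitals mark the matches. Epcam lies on the plus strand of chromosome 17 and its window is chr17:87635729-87635978, Procr on the plus strand of chromosome 2 with the window chr2:155750967-155751124, and Cd44 on the minus strand of chromosome 2 with the window chr2:102901670-102901915. Each line reads 5′ to 3′ on the gene's strand and ends just before the gene.
Epcam: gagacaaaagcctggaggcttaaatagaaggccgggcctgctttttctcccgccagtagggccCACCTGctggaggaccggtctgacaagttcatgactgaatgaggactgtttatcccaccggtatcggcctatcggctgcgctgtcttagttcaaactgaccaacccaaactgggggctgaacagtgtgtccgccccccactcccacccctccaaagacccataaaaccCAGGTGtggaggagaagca
Procr: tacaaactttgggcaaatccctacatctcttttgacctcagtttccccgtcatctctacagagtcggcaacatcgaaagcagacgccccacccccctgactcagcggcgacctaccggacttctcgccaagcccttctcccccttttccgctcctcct
Cd44: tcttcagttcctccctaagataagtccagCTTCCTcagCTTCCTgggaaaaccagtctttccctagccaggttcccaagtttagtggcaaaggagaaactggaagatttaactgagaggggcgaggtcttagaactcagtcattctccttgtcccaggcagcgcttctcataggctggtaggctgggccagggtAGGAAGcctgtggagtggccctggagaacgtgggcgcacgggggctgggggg
The Epcam window held 2 matches of CACCTG, starting 187 bases upstream of its end as written and 19 bases upstream as the reverse complement CAGGTG. Of 32817 promoter windows of the same 250 bases, 17.2% held at least 1 such match and 2.07% held 2 or more. The 246 bases of Cd44 held 3 matches of AGGAAG, 52 bases upstream as written and 208 and 217 bases upstream as CTTCCT, where 29.1% of windows of that length held at least 1 and 6.03% at least 2. In the 158 bases of Procr none of the letters searched was found, against shares of 11.4% for CACCTG, 9.7% for CTTTGA and 19.0% for AGGAAG. These matches describe the letters and were not tested as binding sites.

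Between the fractions of WT cells, 4 of the 9 measured genes were higher in CD24 high cells, namely Epcam, Prom1, Cd14 and Cd55, and 2 were lower, Thy1 and Procr. Among all 19938 genes 16.1% passed the same test, limma at an adjusted p under 0.05, with 7.93% higher and 8.21% lower. In Wnt4-deleted cells 5 were higher, the same 4 and Cd24a, and Thy1 and Procr were lower, where 16.4% of all genes passed, 8.23% higher and 8.22% lower. Cd24a encodes the antigen of the sort, so its call is a check of the gate, though it is kept in the counts and medians. The 6 genes called in WT were called in both genotypes, as were 2465 of all genes, 12.4%. The median size of the 9 differences was 1.89 in WT and 1.87 in Wnt4-deleted cells, against 0.20 and 0.21 over all genes. With the run of arrays 9 to 12 or that of 13 to 16 left out, which leaves 2 arrays a group, 2 and 2 members passed in WT and 3 and 4 in Wnt4-deleted cells, while the genes called fell to 1374 and 1339 in WT and to 1405 and 1350 in Wnt4-deleted cells.

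**Figure D1:**
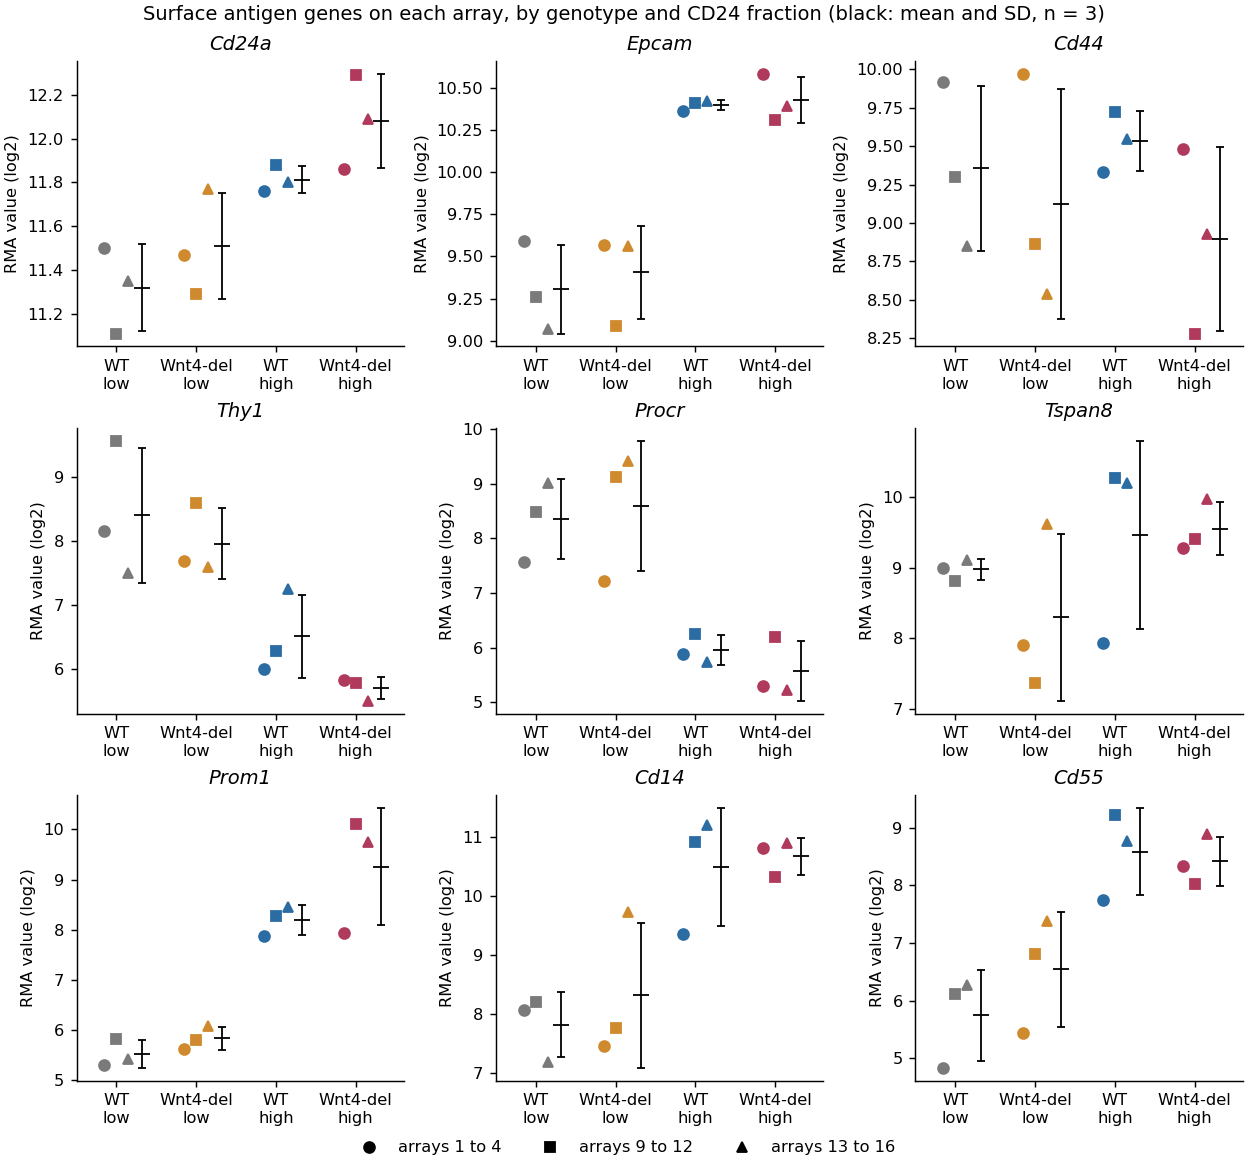
RMA value (log2) of the 9 measured genes on each of the 12 arrays, by genotype and CD24 fraction, with the run of title numbers as the symbol and the mean and SD of 3 arrays in black; each panel has its own scale, which does not start at 0. Epcam, Prom1 and Cd55 lay higher on all 6 CD24 high arrays than on any CD24 low array. Thy1 and Procr lay lower on all 6. Cd24a and Cd14 overlapped only between genotypes, through array 15, and Cd44 and Tspan8 overlapped within each genotype.

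**Figure D2:**
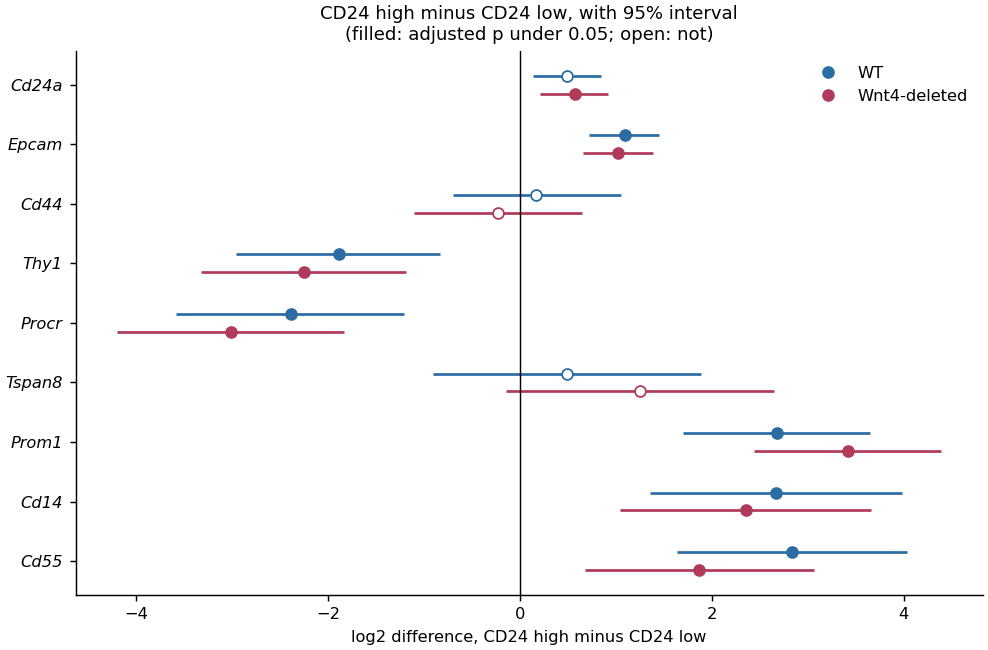
Difference between CD24 high and CD24 low cells (log2, x axis) for the 9 measured genes in WT and Wnt4-deleted cells, with 95% intervals; filled points passed an adjusted p under 0.05. The intervals of Cd44 and Tspan8 include 0 in both genotypes, whereas those of the other 7 genes do not.

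Cd24a encodes the antigen of the sort, a small GPI-anchored, heavily glycosylated protein, so its RNA is a check of the gate and not a finding. On the CD24 low arrays it read 11.50, 11.11 and 11.35 in WT and 11.47, 11.29 and 11.77 in Wnt4-deleted cells. On the CD24 high arrays it read 11.76, 11.88 and 11.80 in WT and 11.86, 12.29 and 12.09 in Wnt4-deleted cells. The RNA was thus high in both fractions, and the fractions overlapped by a single array, Wnt4-deleted CD24 low array 15 at 11.77 against 11.76 on WT CD24 high array 2. The difference was 0.49 ± 0.16 (SE, n = 3 and 3) in WT, a 1.41-fold higher level that did not pass (limma adjusted p = 0.06), and 0.57 ± 0.16 in Wnt4-deleted cells, 1.48-fold higher (limma adjusted p = 0.0329). The WT value passed without array 15 (limma adjusted p = 0.0416) and under 4 other settings (0.00887 to 0.0493), and the Wnt4-deleted value was lost without array 3, 11, 12 or 16 (0.0688 to 0.12), with a second quantile normalisation (0.0588), with only the compared groups in the fit (0.103) and without any 1 of the 3 runs (0.0531 to 0.341).

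Epcam, a homophilic adhesion molecule of epithelia, differed by more and with less spread. The CD24 low arrays read 9.59, 9.26 and 9.07 in WT and 9.57, 9.09 and 9.56 in Wnt4-deleted cells. The CD24 high arrays read 10.36, 10.41 and 10.42 in WT and 10.58, 10.31 and 10.39 in Wnt4-deleted cells. All 6 CD24 high arrays stood above all 6 CD24 low arrays, which was so for 8.19% of all genes. Epcam was 2.13-fold higher in CD24 high WT cells (1.09 ± 0.17 on the log2 scale, limma adjusted p = 0.000948) and 2.03-fold higher in Wnt4-deleted cells (1.02 ± 0.17, limma adjusted p = 0.00143). Epcam nevertheless read above 9 on every CD24 low array, and within runs the difference was 0.77 to 1.35 in WT and 0.83 to 1.23 in Wnt4-deleted cells.

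Of the genes used for basal and stem cells, Thy1 encodes CD90, a small GPI-anchored protein of the immunoglobulin superfamily. On the CD24 low arrays it read 8.15, 9.56 and 7.49 in WT and 7.68, 8.59 and 7.59 in Wnt4-deleted cells. In CD24 high cells the values were 6.0, 6.28 and 7.24 in WT and 5.82, 5.77 and 5.50 in Wnt4-deleted cells. Every CD24 low array was above every CD24 high array, as in the 8.33% of genes that were lower in CD24 high cells in this way, with WT CD24 high array 14 standing nearest to the CD24 low range. Thy1 was 3.71-fold lower in CD24 high WT cells (-1.89 ± 0.48, limma adjusted p = 0.0205) and 4.76-fold lower in Wnt4-deleted cells (-2.25 ± 0.48, limma adjusted p = 0.00801). The WT call was lost without array 2 (-1.64, limma adjusted p = 0.0736), array 9 (-1.31, 0.0591) or array 10 (-1.78, 0.0726), and when the fit held only the 2 WT groups (0.0579). It was also lost without the run 1 to 4 (-1.76, limma adjusted p = 0.121) or 9 to 12 (-1.2, 0.159). Within runs the WT difference went from -0.25 to -3.28.

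The highest Thy1 values, 9.56 and 8.59, came from arrays 9 and 11, which also had the highest means of fibroblast (8.55 and 8.11), macrophage (6.02 and 5.55) and pericyte genes (6.90 and 7.27). On the other 4 CD24 low arrays Thy1 lay between 7.49 and 8.15 and the fibroblast mean between 5.87 and 6.75. On the CD24 high arrays Thy1 lay between 5.50 and 7.24 and the fibroblast mean between 5.28 and 5.75. Col1a1, which defines fibroblasts, read 8.49 and 8.36 on arrays 9 and 11 and at most 6.90 on any other array. Over the 6 CD24 low arrays Thy1 correlated at r = 0.85 with the fibroblast mean (Spearman's rho = 0.49). With the macrophage mean r was 0.82 (rho = 0.54) and with the pericyte mean 0.72 (rho = 0.43). Over the 4 arrays left without arrays 9 and 11, the 2 farthest from the median, r was -0.46, -0.44 and -0.87 in the same order. The relations thus rest on those 2 arrays. The part of RNA from these other cell types in the Thy1 difference was not tested. In bulk RNA, fewer cells of a type and less RNA per cell cannot be told apart.

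Procr encodes the endothelial protein C receptor, which presents protein C for activation on endothelium and has been used to label a rare basal population with stem cell properties. It read 7.56, 8.48 and 9.02 in WT CD24 low cells and 7.22, 9.12 and 9.42 in Wnt4-deleted CD24 low cells. In CD24 high cells it read 5.89, 6.25 and 5.73 in WT and 5.30, 6.20 and 5.22 in Wnt4-deleted cells. The fractions did not overlap, and the CD24 low arrays of the run 1 to 4 were the lowest of their fraction in each genotype. Procr was 5.25-fold lower in CD24 high WT cells (-2.39 ± 0.54, limma adjusted p = 0.0103) and 8.08-fold lower in Wnt4-deleted cells (-3.01 ± 0.54, limma adjusted p = 0.0026). Within runs the difference went from -1.67 to -3.29 in WT and from -1.92 to -4.20 in Wnt4-deleted cells.

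Procr was set against the marker lists. Across the 6 CD24 low arrays, its correlation with the mean of the 18 endothelial genes was r = 0.98 (Spearman's rho = 0.94), and r = 0.85 over the 4 arrays left without the 2 farthest from the median. Procr ran as closely against the general luminal mean (r = -0.94, rho = -1.0) and the myoepithelial mean (r = -0.96, rho = -1.0). Over 4 arrays these were r = -0.92 and -0.91, and r with the macrophage mean was 0.90. Across the 6 CD24 high arrays r with the endothelial mean was 0.81 (rho = 0.66) and 0.41 over 4 arrays. In these CD24 high arrays Procr was as close to the fibroblast mean (r = 0.85, rho = 0.94; r = 0.96 over 4 arrays) and the pericyte mean (r = 0.82, rho = 0.66; r = 0.70 over 4 arrays). These are descriptions from 180 such correlations of members with marker lists, and arrays of a run share whatever a run stands for. Since a run holds only 2 arrays of a fraction, no correlation within runs can be given. On arrays 1 and 3, where the endothelial mean was lowest among CD24 low arrays (6.65 and 6.53), Procr still stood at 7.56 and 7.22, above all CD24 high arrays, although Pecam1 was present there too at 7.40 and 7.34. How much of the Procr signal came from endothelial cells was not tested.

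Cd44, the hyaluronan receptor, is high in basal cells in many sorting schemes, which read the surface protein. Its RNA did not separate the fractions here, and the arrays do not measure the surface protein. It read 9.92, 9.30 and 8.85 in WT CD24 low cells and 9.97, 8.86 and 8.54 in Wnt4-deleted CD24 low cells. In CD24 high cells it read 9.33, 9.72 and 9.55 in WT and 9.48, 8.28 and 8.93 in Wnt4-deleted cells. The ranges overlapped in both genotypes, and arrays 1 and 3 were the highest of all. The difference was 0.17 ± 0.40 in WT (95% interval -0.70 to 1.05, limma adjusted p = 0.861) and -0.23 ± 0.40 in Wnt4-deleted cells (limma adjusted p = 0.789), and it changed sign without array 13 in WT (-0.08) and without array 3 or 12 in Wnt4-deleted cells (0.19 and 0.08). Across the CD24 low arrays Cd44 ran against the endothelial mean (r = -0.97, rho = -0.83, n = 6; r = -0.80 over 4 arrays) and with the general luminal mean (r = 0.96, rho = 0.94; r = 0.91 over 4 arrays). It followed the myoepithelial mean as closely (r = 0.95, rho = 0.94; r = 0.89 over 4 arrays), and its correlation with the skeletal muscle mean was r = 0.89 (rho = 0.94; r = 0.23 over 4 arrays). Within the run 1 to 4 the fraction difference of Cd44 was -0.59 in WT and -0.49 in Wnt4-deleted cells. The CD24 low arrays of that run, 1 and 3, had the lowest endothelial means of their fraction and the highest skeletal muscle means (7.13 and 8.16), and the part of either in the Cd44 values was not tested.

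Tspan8 encodes a tetraspanin that has been used for a quiescent basal stem population. The CD24 low arrays read 9.0, 8.81 and 9.11 in WT and 7.90, 7.37 and 9.62 in Wnt4-deleted cells. The CD24 high arrays read 7.93, 10.26 and 10.19 in WT and 9.27, 9.41 and 9.97 in Wnt4-deleted cells. The fractions overlapped in each genotype: array 2 was the lowest WT array although it came from CD24 high cells, and array 15 stood within the CD24 high range. The difference was 0.49 ± 0.64 in WT (95% interval -0.91 to 1.89, limma adjusted p = 0.731) and 1.25 ± 0.64 in Wnt4-deleted cells (-0.15 to 2.65, limma adjusted p = 0.234). Among the 6 CD24 high arrays Tspan8 was highest where luminal progenitor genes were highest (r = 0.91, rho = 0.94; r = 0.98 over 4 arrays). With the general luminal mean r was 0.68 (rho = 0.66; r = -0.0 over 4 arrays).

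Of the antigens that divide luminal cells, Prom1 encodes CD133, a protein of membrane protrusions that marks hormone-sensing luminal cells of the mouse gland. On the CD24 low arrays it read 5.31, 5.83 and 5.43 in WT and 5.63, 5.80 and 6.08 in Wnt4-deleted cells. CD24 high cells read 7.87, 8.27 and 8.46 in WT and 7.93, 10.10 and 9.74 in Wnt4-deleted cells. The fractions were far apart and the CD24 low values close together, while arrays 12 and 16 stood above all other arrays. Prom1 was 6.39-fold higher in CD24 high WT cells (2.68 ± 0.44, limma adjusted p = 0.00167) and 10.7-fold higher in Wnt4-deleted cells (3.42 ± 0.44, limma adjusted p = 0.00031). Over the 6 CD24 high arrays its correlation with the mean of 8 hormone-sensing genes was r = 0.56 (rho = 0.66) and with the luminal progenitor genes r = 0.04 (rho = 0.20). Over these 6 arrays, correlations of the same size were found with the endothelial (r = 0.56, rho = 0.71) and pericyte means (r = 0.54, rho = 0.71). Over 4 arrays r was 0.72 for the hormone-sensing, 0.40 for the endothelial and -0.20 for the pericyte mean. The hormone-sensing list includes Wnt4, the deleted gene, which differed by -1.20 between genotypes in CD24 high cells.

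Cd14 encodes the co-receptor that hands lipopolysaccharide to Toll-like receptor 4, and in the gland it labels luminal progenitors. It read 8.07, 8.20 and 7.19 in WT CD24 low cells and 7.47, 7.77 and 9.73 in Wnt4-deleted CD24 low cells. CD24 high cells read 9.36, 10.92 and 11.20 in WT and 10.81, 10.32 and 10.90 in Wnt4-deleted cells. Array 15 at 9.73 stood above WT CD24 high array 2 at 9.36, and within each genotype the fractions did not overlap, as for 32.8% of all genes in WT and 29.3% in Wnt4-deleted cells. Cd14 was 6.38-fold higher in CD24 high WT cells (2.67 ± 0.60, limma adjusted p = 0.00991) and 5.11-fold higher in Wnt4-deleted cells (2.35 ± 0.60, limma adjusted p = 0.0193). The Wnt4-deleted call was lost without array 3, 4, 11 or 16 (1.93 to 2.29, limma adjusted p = 0.0565 to 0.0731). The mean of the 12 macrophage genes was 4.38 to 4.68 on the CD24 high arrays and 4.47 to 6.02 on the CD24 low arrays, and the part of macrophage RNA in the Cd14 values was not tested.

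Cd55 encodes decay accelerating factor, a GPI-anchored protein that shields cells from complement and that has been used for luminal progenitors. The CD24 low arrays read 4.84, 6.12 and 6.28 in WT and 5.44, 6.81 and 7.38 in Wnt4-deleted cells. The CD24 high arrays read 7.75, 9.22 and 8.77 in WT and 8.33, 8.03 and 8.88 in Wnt4-deleted cells. The fractions did not overlap, and in each fraction and genotype apart from Wnt4-deleted CD24 high cells the run 1 to 4 gave the lowest value. Cd55 was 7.13-fold higher in CD24 high WT cells (2.83 ± 0.54, limma adjusted p = 0.00407) and 3.66-fold higher in Wnt4-deleted cells (1.87 ± 0.54, limma adjusted p = 0.0367). The latter call was lost without array 3, 4, 11, 12, 14 or 16 (1.32 to 2.07, limma adjusted p = 0.0508 to 0.136) and when the fit held only the Wnt4-deleted groups (0.0621).

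Cd55 and Cd14 varied with the luminal progenitor genes inside the CD24 high fraction. The mean of 9 such genes, which include Elf5 and Kit, was 9.86, 11.12 and 10.93 on arrays 2, 10 and 14 and 10.23, 10.15 and 10.70 on arrays 4, 12 and 16. Its correlation over these 6 arrays was r = 0.97 with Cd55 (rho = 0.94; r = 0.91 over 4 arrays) and r = 0.82 with Cd14 (rho = 0.94; r = 0.87 over 4 arrays). The general luminal mean gave r = 0.75 with Cd55 (rho = 0.77) and 0.79 with Cd14 (rho = 0.71), but -0.02 and 0.12 over 4 arrays. Both genes ran against the lymphocyte mean, Cd55 at r = -0.66 (-0.74 over 4 arrays) and Cd14 at -0.74 (-0.32 over 4 arrays). In the CD24 low fraction Cd55 ran instead with the endothelial mean (r = 0.90, rho = 0.89). It ran as closely against the myoepithelial (r = -0.94, rho = -0.94) and general luminal means (r = -0.93, rho = -0.94). Over 4 arrays r with the endothelial mean was 0.62, below that with the pericyte (0.95), fibroblast (0.92) and macrophage means (0.92). The relation of Cd55 to any of these means beyond these values was not tested.

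**Figure D3:**
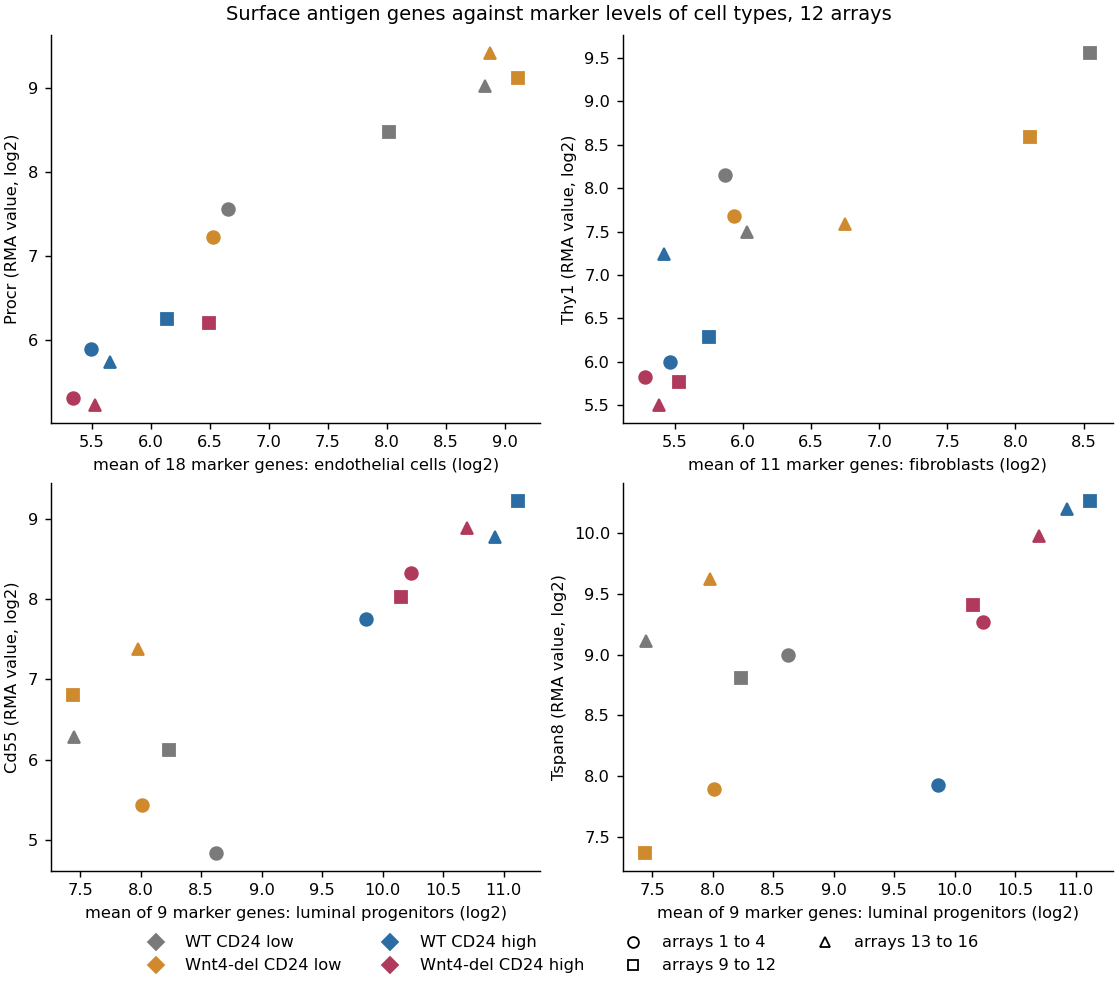
Levels of Procr, Thy1, Cd55 and Tspan8 (y axes, log2) against the mean level of marker genes of a cell type (x axes, log2) on the 12 arrays, coloured by group and with the run as the symbol. Procr was higher where the endothelial mean was higher in the CD24 low arrays, the 2 highest Thy1 values lay at the 2 highest fibroblast means, and Cd55 and Tspan8 followed the luminal progenitor mean among the CD24 high arrays.

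The 4 groups were also put in order of their mean levels. For Cd24a, Epcam, Prom1 and Cd14 it went from WT CD24 low and Wnt4-deleted CD24 low to WT CD24 high and Wnt4-deleted CD24 high. The means of Prom1 were 5.53 ± 0.27, 5.84 ± 0.23, 8.20 ± 0.30 and 9.26 ± 1.16 (SD, n = 3 each), and only the middle step lay outside the spread of the arrays. The same was true of the middle step of Epcam, whereas for Cd14 even that step, from 8.32 to 10.49, overlapped through array 15. Cd55 had its gap between Wnt4-deleted CD24 low (6.54) and Wnt4-deleted CD24 high cells (8.41), and Procr between WT CD24 high (5.96 ± 0.27) and WT CD24 low cells (8.35 ± 0.74). Thy1 had 2 gaps, from 5.70 ± 0.17 in Wnt4-deleted to 6.51 ± 0.65 in WT CD24 high cells and on to 7.95 ± 0.56 in Wnt4-deleted CD24 low cells. All neighbouring groups of Cd24a, Cd44 and Tspan8 overlapped.

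The second question of the design was whether loss of Wnt4, a secreted Wnt ligand of hormone-sensing luminal cells, altered either fraction. None of the 9 genes passed the test between genotypes in either fraction (limma adjusted p = 1 for each), and none at an unadjusted p under 0.05 in CD24 low and 1, Prom1, in CD24 high cells. Across all genes 0.00502% passed in each fraction, a single gene, a, which encodes the agouti signalling protein and is named here only because it was the one called, while 610 and 396 genes had an unadjusted p under 0.05. A p that misses the threshold leaves the size of a difference open, and 95% intervals are therefore given for the larger ones.

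Prom1 had the largest difference between genotypes among the 9 genes. In CD24 high cells it was 1.05 ± 0.44 higher in Wnt4-deleted cells (95% interval 0.08 to 2.03, limma adjusted p = 1). The value was higher in 3 of 3 runs, by 0.06, 1.83 and 1.27, but the arrays overlapped because Wnt4-deleted array 4 read 7.93. In CD24 low cells the difference was 0.31 ± 0.44.

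Thy1 was the only member whose genotypes did not overlap within a fraction. In CD24 high cells the Wnt4-deleted arrays, 5.50 to 5.82, lay below the WT arrays, 6.0 to 7.24, in 3 of 3 runs, where 7% of all genes had arrays that did not overlap, 4.97% lower and 2.04% higher. The fitted difference was -0.81 (95% interval -1.87 to 0.26) and -0.44 without WT array 14, which read 7.24. In CD24 low cells it was -0.45, and no member had arrays that did not overlap, against 6.77% of all genes (4.12% lower and 2.65% higher).

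Cd55 was higher in Wnt4-deleted CD24 low cells in 3 of 3 runs, by 0.60, 0.70 and 1.1, with a fitted difference of 0.80 (95% interval -0.39 to 1.99). In CD24 high cells the difference was -0.17 and the runs disagreed in sign. Tspan8 differed by -0.68 (95% interval -2.08 to 0.72) in CD24 low cells and by 0.09 in CD24 high cells. Cd14 differed by 0.50 and 0.18, and the first value came from array 15, without which it was -0.20.

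The smallest intervals belonged to the pan-epithelial genes. Epcam differed between genotypes by 0.10 in CD24 low cells and by 0.03 in the CD24 high fraction, and Cd24a by 0.19 and 0.27. Cd44 and Procr differed by -0.24 and 0.24 in CD24 low cells and by -0.64 and -0.38 in CD24 high cells, all within the spread of the arrays.

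The fraction effect was also compared between genotypes. In this test of the difference of differences none of the 9 genes passed (limma adjusted p = 1 for each; none at an unadjusted p under 0.05), as none did among all genes (0%, with 273 at an unadjusted p under 0.05). The values ran from -0.96 ± 0.77 for Cd55, whose fraction effect was smaller in Wnt4-deleted cells, to 0.76 ± 0.90 for Tspan8 and 0.74 ± 0.63 for Prom1. A larger fraction effect of Cd24a in one genotype, called in Wnt4-deleted but not in WT cells, was not shown, since the difference between the genotypes was 0.07 ± 0.23.

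**Figure D4:**
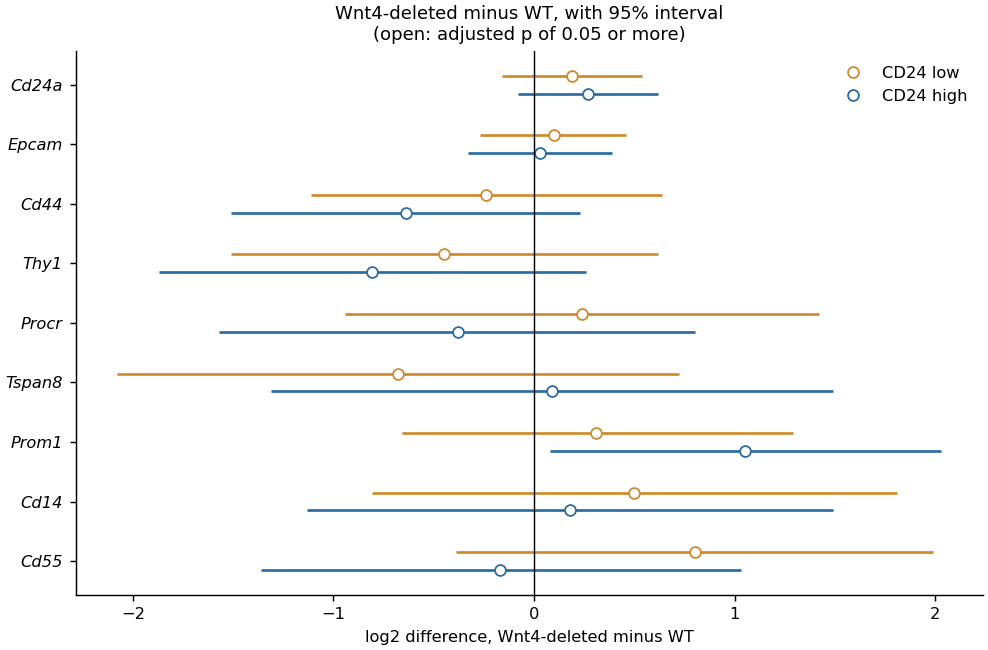
Difference between Wnt4-deleted and WT cells (log2, x axis) for the 9 measured genes in CD24 low and CD24 high cells, with 95% intervals; all points are open because none passed an adjusted p under 0.05. Only the interval of Prom1 in CD24 high cells, 0.08 to 2.03, leaves out 0, and that of Tspan8 in CD24 low cells spans -2.08 to 0.72.

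For each member the 3 genes with the nearest profile were found by the root mean square difference between log2 profiles over the 12 arrays, each gene taken around its own mean, which is a description of likeness. Epcam lay 0.10 from Strbp, 0.14 from Mapk13 and 0.15 from Tmem106c, where its own SD over the arrays was 0.55. Nearest to Procr were Fli1 (0.24), Tek (0.26) and S1pr1 (0.26), with an SD of 1.5. Fli1 is an ETS factor, Tek the angiopoietin receptor and S1pr1 a sphingosine phosphate receptor, all of them high in endothelium.

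Thy1 was nearest to Col6a1 (0.48), a chain of collagen VI, Igfbp6 (0.49) and Spock2 (0.50), at an SD of 1.22. Prom1 was nearest to Myo5c and Stc2 (0.38 each) and Rassf6 (0.41), at an SD of 1.65. Cd55 was nearest to Enpp3 (0.38), a surface nucleotidase, Cldn10 (0.47) and Tlr4 (0.50), the receptor that CD14 serves, at an SD of 1.36. Cd14 itself was nearest to Depdc7 (0.51), Sbsn (0.52) and Cystm1 (0.53), at an SD of 1.45.

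Among the remaining 3 genes, Cd24a lay 0.11 from Orai1 and 0.13 from Primpol and Tnnc1 at an SD of 0.33, and Cd44 lay 0.25 from Nfatc2, 0.26 from Celf2 and 0.27 from Map2k3 at an SD of 0.52. Tspan8 lay 0.44 from BC006965 and 0.45 from Mrpl23 and Lyrm4 at an SD of 0.89.

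Genes related to the antigens were then counted in lists that leave out the members. Among 25 other surface antigens used to sort mammary cells, 7 were higher and 9 lower in CD24 high WT cells, with a list median of -0.73 against 0.02 over all genes. Lgr5, a Wnt-linked stem cell receptor (-4.97 ± 0.23, limma adjusted p = 2.74e-07), Pdpn, podoplanin (-4.13 ± 0.20), and Dll1, a Notch ligand (-3.91 ± 0.18), were far lower, while Alcam, an adhesion molecule, was higher (2.64 ± 0.21). Their standard errors were smaller than those of Thy1 and Procr. Of the 4 sorting integrins, Itga6 (-0.89 ± 0.23) and Itgb1 (-0.63 ± 0.18) were lower and Itga2 (0.86 ± 0.26) was higher in CD24 high WT cells, differences smaller than that of Epcam.

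Partners of Epcam were counted next. The list of EpCAM family and partners held 9 measured genes, none of them a relative of Epcam. Of these partners 5 were higher and 0 lower in each genotype, with a list median of 1.62 in WT. Cldn3, Cldn4 and Cldn7 are also among the general luminal genes that were used to check the sort. The 5 were the tight junction claudins Cldn4 (2.94 ± 0.20), Cldn7 (3.17 ± 0.35), Cldn3 (2.73 ± 0.32) and Cldn1 (2.68 ± 0.70), and the protease Adam10 (1.62 ± 0.14). Each of the 5 had a larger difference than Epcam itself (1.09). The other 4 did not pass in either genotype, with WT differences from 0 for Psen2 to 0.39 for Fhl2.

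Families of the basal antigens were mixed. Of 27 tetraspanins other than Tspan8, 4 were higher and 6 lower in WT, with a median of -0.11, among them Cd82 (2.17 ± 0.18), Tspan18 (-2.83 ± 0.24), Tspan2 (-1.78 ± 0.24) and Tspan4 (-1.05 ± 0.17). Of 14 hyaluronan genes, the ligand system of CD44, 1 was higher and 6 lower in WT (median -0.48). The hyaluronan synthases Has2 (-4.63 ± 0.44) and Has1 (-1.75 ± 0.32), the hyaluronan-binding proteoglycan Vcan (-3.86 ± 0.53) and the hyaluronidase Hyal2 (-0.85 ± 0.14) were lower in CD24 high cells, whereas Cd44 did not pass.

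In the protein C and thrombin system of Procr, 2 of 9 measured genes were higher and 4 lower in WT. Pros1, the protein S cofactor (-3.59 ± 0.33), and F2r, a thrombin receptor (-1.5 ± 0.29), were lower in CD24 high cells. F3, tissue factor (1.96 ± 0.22), and Proc, protein C itself (1.48 ± 0.21), were higher. Procr and Proc, the protein C receptor and its ligand, thus differed in opposite directions.

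Among relatives of the luminal antigens, the shares called were read beside the 16.1% of all genes. Of 22 measured genes of the Ly6 family, to which the unmeasured Ly6a belongs, 3 were higher and 0 lower in WT: Ly6d (3.17 ± 0.43), Lypd3 (1.91 ± 0.34) and Plaur, the urokinase receptor (1.34 ± 0.18). Of 18 genes of CD14 and Toll-like receptor signalling 3 were higher, Tlr4 (1.82 ± 0.39), Irak2 (1.37 ± 0.24) and Tirap (0.85 ± 0.24), and the adaptor Myd88 was lower (-0.91 ± 0.12). Of 11 complement regulators other than Cd55, Clu was higher (1.83 ± 0.30) and Serping1 lower (-4.14 ± 0.58), and the other 9, Cd46 and Cd59a among them, did not pass. No gene of any of these lists passed between genotypes in either fraction.

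**Figure D5:**
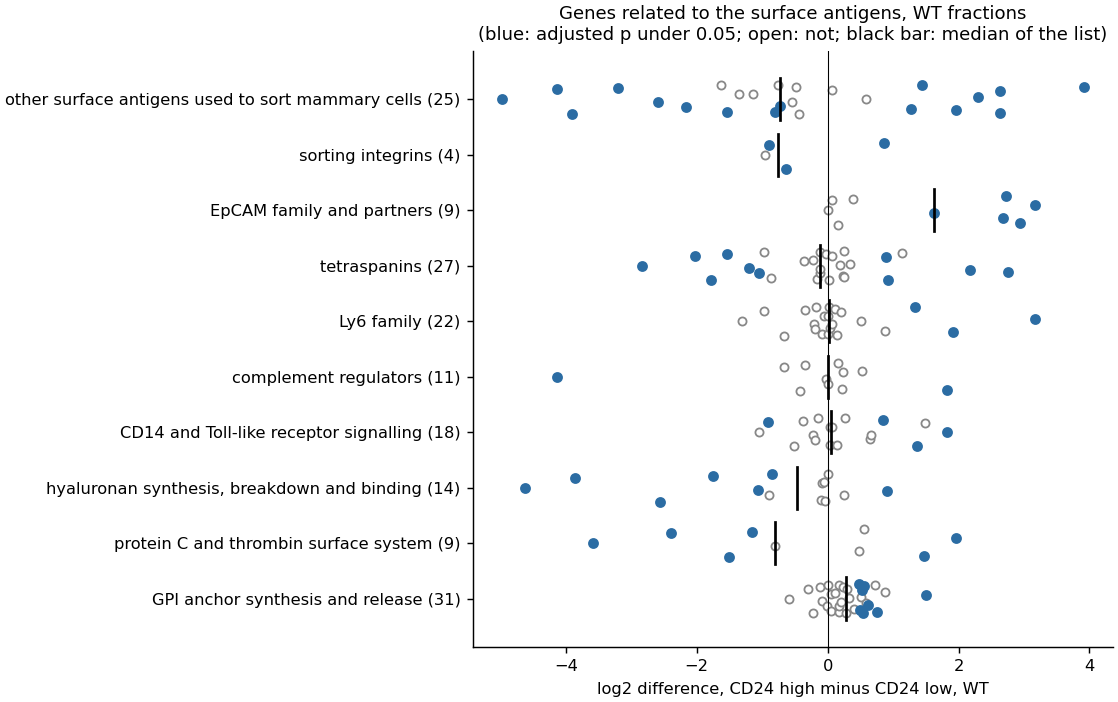
Difference between CD24 high and CD24 low WT cells (log2, x axis) of each measured gene in 10 lists of genes related to the antigens, with the number of genes in parentheses; blue points passed an adjusted p under 0.05 and the bar is the list median. The genes listed as EpCAM family and partners, of which only partners were measured, lie at or above 0 (median 1.62). The other sorting antigens spread from -4.97 to 3.91.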

How the data were processed

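Sorted GFP+ mouse mammary cells were profiled on 12 Affymetrix gene arrays, 1 per sample, after Trizol extraction and amplification with Nugen Ovation kits. The submitters' processing notes name RMA and Affymetrix Expression Console 1.1.2800. RMA corrects for background, applies quantile normalisation and summarises probes, so values deposited by the authors are on the log2 scale (1.62 to 13.8) and array medians are alike (5.94 to 6.06). How the authors tested the arrays is not given in the sources used here. Groups were taken from titles and genotype labels.

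Of 35556 probesets, 21789 had 1 gene symbol in the platform annotation, 1621 had several and 12146 were not named. For the 999 genes with more than 1 such probeset the one with the highest mean was used, giving 19938 genes; each measured member had 1 probeset. No array was identical to another, and arrays correlated at r = 0.963 to 0.991 within groups and 0.905 to 0.939 between fractions. Tests used limma 3.58.1 in R 4.3.3 with a mean for each of the 4 groups (12 arrays, 8 residual and 11.05 total degrees of freedom), two-sided, with Benjamini-Hochberg adjustment over all genes in each of 5 comparisons and a threshold of 0.05. In 5 simulations of the WT fraction comparison with 19938 genes and 200 changed, 67.2% of changes of 1 and 93.6% of changes of 2 (log2) were recovered, with 10.0 false calls on average. The precision is limited by the number of arrays.

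Members, gene lists and tests were chosen with earlier results of these data known. Named genes were all members, the 3 nearest profiles of each (mean at or over the 40th percentile, without predicted and small RNA genes) and up to 4 called genes per list with the smallest p in the WT fraction comparison. Marker lists are means of log2 values. Promoters are from RefSeq.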

Additional observations from a re-analysis of the deposited data

How the results depend on the processing

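Settings other than those reported were array weights, centring on array medians, a robust prior with a trend on intensity, averaging the probesets of a gene, quantile normalisation a second time, a filter at the 40th percentile, a fit of the compared groups only (which gives no difference of differences), a replicate block by run, and leaving out each array or each run. With few arrays, calls of Cd24a, Thy1, Cd14 and Cd55 rested on single arrays, and small genotype differences changed sign. Calls also rested on a run. Those of Procr were lost in both genotypes without the run 9 to 12 or 13 to 16 (limma adjusted p = 0.0544 to 0.149). In WT, Epcam (0.0527) and Prom1 (0.0675) were lost without the run 13 to 16. Cd14 in WT was lost without the run 9 to 12 (0.125) or 13 to 16 (0.0541), and Cd55 without the run 9 to 12 (0.0834). Thy1 in WT was lost without the run 1 to 4 (limma adjusted p = 0.121) or 9 to 12 (0.159). In Wnt4-deleted cells Cd14 was lost without the run 1 to 4 (limma adjusted p = 0.0791) or 9 to 12 (0.191). Cd55 was lost there without the run 9 to 12 (limma adjusted p = 0.15) or 13 to 16 (0.14). The cause was not tested for any of these changes, beyond the smaller number of arrays where arrays were left out.

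With 1 array left out, 5 to 7 members passed in WT, 4 to 7 in Wnt4-deleted cells and 0 between genotypes and in the difference of differences, and 2282 to 3526, 2156 to 3628, 1 to 2 (CD24 low), 1 to 1 (CD24 high) and 0 of all genes. Array weights gave 5215 genes between the WT fractions. Without the run 9 to 12, 2 members and 1374 genes passed in WT and 3 and 1405 in Wnt4-deleted cells, and without the run 13 to 16, 2 and 1339 and 4 and 1350. Between genotypes 0 genes passed in CD24 low cells with only the compared groups or without the run 1 to 4 or 9 to 12, and 0 in CD24 high cells without either of these runs.

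The groups share no title number, and the run is only a possible pairing: deviations of arrays from their group means correlated at -0.14 to 0.7 (median 0.14) within runs and -0.53 to 0.36 (median -0.07) between runs. With the run as a replicate block, 6 members and 3624 genes passed in WT and 7 and 3747 in Wnt4-deleted cells.

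With a second quantile normalisation Epcam between genotypes in CD24 high cells was -0.04 and the difference of differences of Cd24a -0.03. With array weights the genotype difference in CD24 high cells was -0.01 for Epcam, -0.23 for Tspan8 and -0.10 for Cd14. Without the run 1 to 4 it was -0.06, -0.54 and -0.45, and the difference of differences of Tspan8 was -0.07. Without the run 9 to 12 Cd55 was 0.35 in CD24 high cells. Without the run 13 to 16 Cd44 between WT fractions was -0.08, the genotype difference in CD24 low cells was -0.10 for Epcam and -0.51 for Cd14, and the difference of differences was 0.16 for Epcam, 0.38 for Thy1 and 0.94 for Cd14.

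With each array left out in turn, differences that changed sign ranged as follows. Between fractions Cd44 ran from -0.08 to 0.46 in WT and from -0.52 to 0.19 in Wnt4-deleted cells. Between genotypes in CD24 low cells Epcam ran from -0.02 to 0.26, Cd44 from -0.66 to 0.05, Thy1 from -0.90 to 0.13, Procr from -0.18 to 0.92 and Cd14 from -0.20 to 0.93. Among CD24 high cells Epcam ran from -0.04 to 0.09, Tspan8 from -0.68 to 0.49, Cd14 from -0.38 to 0.54 and Cd55 from -0.58 to 0.15. The difference of differences ran from -0.04 to 0.20 for Cd24a, from -0.23 to 0.05 for Epcam, from -0.69 to 0.02 for Cd44, from -0.94 to 0.09 for Thy1, from 0 to 1.43 for Tspan8 and from -0.89 to 0.38 for Cd14.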

Other observations

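Several of the antigens, Cd24a, Thy1, Cd14 and Cd55, are held in the membrane by a glycosylphosphatidylinositol (GPI) anchor. A list of 31 genes covers building, attaching, remodelling and cleaving this anchor, apart from Gde1, a phosphodiesterase that acts on glycerophosphoinositol. Of the 31, 8 were higher and 0 lower in CD24 high WT cells, with a list median of 0.28 against 0.02 over all genes. In Wnt4-deleted cells 11 were higher and 1 lower (median 0.46). Gde1 had the smallest p in WT (1.5 ± 0.22, limma adjusted p = 0.000798). The next were Pgap1, which remodels the anchor after attachment (0.50 ± 0.10), Pigl, an early enzyme of anchor synthesis (0.52 ± 0.12), and Dpm2, a subunit of the mannose donor synthase (0.75 ± 0.21).

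The membrane protrusions in which prominin sits were described by 11 genes. In WT, 2 were higher in CD24 high cells, Ezr (1.56 ± 0.19) and Slc9a3r1 (1.46 ± 0.24), which link membrane proteins to actin, and 2 were lower, Msn (-1.59 ± 0.18) and Ttyh2 (-2.26 ± 0.29). Ezr and Msn encode the related linkers ezrin and moesin, and they differed in opposite directions by a similar size. Prom2, the relative of Prom1, differed by 0.85 ± 0.27 in WT (limma adjusted p = 0.0509) and by 1.31 ± 0.27 in Wnt4-deleted cells (limma adjusted p = 0.00573).

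The antigens aimed at in lineage depletion are a further group. Of 6 measured genes none passed in WT (3 of them, Ptprc, Cd3e and Itgam, with differences of -0.58, -0.22 and -0.08), and 1, Pecam1, passed in Wnt4-deleted cells (-3.21, limma adjusted p = 0.0278). In WT Pecam1 differed by -2.76 ± 0.88 (limma adjusted p = 0.0541).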
